A study of Mus musculus with 4 samples.

Results

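Proliferating barcodes were taken as cell barcodes with at least 500 detected genes, at most 10% mitochondrial UMIs (unique molecular identifiers, 1 per captured transcript) and at least 2 of the 7 genes Mki67, Top2a, Birc5, Pclaf, Ube2c, Cdk1 and Ccnb2. In all, 739 of 14058 barcodes met this rule, 590 of 8422 in untreated mice and 149 of 5636 in MC903-treated mice. The rule uses measured RNA, so the levels of these 7 genes are given as a description and support nothing else. The members were uneven in other cell cycle genes. These were high in barcodes with 3 or more of the 7 genes, which is partly built into the rule and does not bear out the label. In MC903 barcodes of dendritic cell clusters with exactly 2 of the 7, they stood close to the level of the remaining cells. The members are therefore called rule-positive barcodes below.

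The cells were sorted as migratory dendritic cells (DCs), gated B220- CD11cint MHCIIhi, from the lymph nodes that drain the ears of Tnfsf4KI/+ mice, which report OX40L (encoded by Tnfsf4) through BFP, a blue fluorescent protein. The ears of 1 group were untreated. Those of the other were painted with MC903 (days 0, 2 and 4), a vitamin D3 analog that makes skin overexpress TSLP, and harvest followed on day 5. From each group 5000 BFP+ and 7000 BFP− cells were tagged with separate hashtag antibodies and run together as 1 droplet capture. All groups carry the reporter allele on 1 chromosome, and the number of mice per pool, their age and sex are not given in the sources used here.

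A dividing cell copies its DNA in S phase and separates the copies in mitosis, which follows the G2 phase. Genes for making nucleotides and loading the replication machinery peak in S phase, and genes for the mitotic kinases, the spindle and chromosome segregation peak in G2 and mitosis. Mature migratory DCs are generally regarded as cells that have left the cycle, while their precursors, germinal centre B cells and activated T cells divide.

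The 7 genes act from S phase to mitosis. Pclaf encodes a partner of the replication clamp PCNA, Top2a untangles DNA, Cdk1 and its partner Ccnb2 drive entry into mitosis, Ube2c tags mitotic cyclins for destruction, Birc5 guides chromosome segregation, and Mki67 coats mitotic chromosomes. Below are the 200 bases upstream of the RefSeq start of 4 of them (build GRCm38.p6, each 5′ to 3′ on the gene's own strand). They are shown because the members were chosen on genes most of whose promoters share short motifs. The 4 were picked for holding the first motif named next, which Birc5 and Pclaf lack, and Birc5 also lacks the second. Capitals mark matches to the cell cycle homology region (TTTGAA or TTCGAA, either strand), which binds the repressor and activator complexes that time late cell cycle genes, and to the CCAAT box (CCAAT, either strand). The windows are chr7:135716380-135716579 (minus strand) for Mki67, chr11:99024190-99024389 (minus strand) for Top2a, chr2:164769729-164769928 (plus strand) for Ube2c and chr10:69352913-69353112 (minus strand) for Cdk1.
Mki67: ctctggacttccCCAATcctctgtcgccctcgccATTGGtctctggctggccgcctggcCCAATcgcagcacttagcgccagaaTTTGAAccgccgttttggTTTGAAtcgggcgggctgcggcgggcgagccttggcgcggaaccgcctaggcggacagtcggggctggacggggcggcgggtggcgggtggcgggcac
Top2a: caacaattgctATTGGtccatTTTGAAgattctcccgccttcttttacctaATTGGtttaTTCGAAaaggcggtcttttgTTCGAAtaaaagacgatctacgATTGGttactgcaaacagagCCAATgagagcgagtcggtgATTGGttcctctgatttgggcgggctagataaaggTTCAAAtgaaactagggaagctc
Ube2c: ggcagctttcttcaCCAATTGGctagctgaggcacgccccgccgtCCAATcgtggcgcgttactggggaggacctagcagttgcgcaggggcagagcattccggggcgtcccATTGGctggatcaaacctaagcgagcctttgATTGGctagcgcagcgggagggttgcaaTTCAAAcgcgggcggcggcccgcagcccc
Cdk1: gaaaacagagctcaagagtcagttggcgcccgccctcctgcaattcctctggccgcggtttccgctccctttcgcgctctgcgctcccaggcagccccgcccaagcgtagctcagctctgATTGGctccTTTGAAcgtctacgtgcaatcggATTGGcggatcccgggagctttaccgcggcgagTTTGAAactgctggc

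In windows of 300 bases (250 before to 50 after the start), a cell cycle homology region was found for 5 of the 7 rule genes and in 19.2% of all 32851 RefSeq promoters. The CCAAT box was found for 6 of 7 and in 37.4% of all. Of the 50 genes of a G2 and mitosis list that had a RefSeq promoter (58 listed), 39 held the homology region (78%) and 2 an E2F motif (4%; TTCCCGCC, TTTCCCGC or TTTGGCGC, either strand). Of the 36 matched genes of an S phase and replication list (49 listed), 7 held the homology region (19.4%) and 17 an E2F motif (47.2%), against 3.21% of all promoters for the E2F motif. A listed gene counted if any of its promoters held the motif, whereas the shares of all count single promoters. A match is a description of letters and not a binding site.

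The captures differed in depth. Kept barcodes had a median of 2622 UMIs in the untreated and 9219 in the MC903 capture, with totals of 33525154 and 57148072 UMIs before filtering. The captures were also sequenced on different lanes, so treatment, capture and lane cannot be told apart, and with 1 pool per population no test between groups was possible. Intervals in brackets are exact 95% intervals (Clopper-Pearson for shares, 2 Poisson counts for ratios) and cover counting error only. Of the kept barcodes 21 occurred in both captures, none of them rule-positive.

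Rule-positive barcodes made up 7.01% of the untreated capture and 2.64% of the MC903 capture. After each barcode was thinned to 2000 UMIs, with 1752 and 101 shallower ones left out, the shares were 5.04% (4.52 to 5.59) and 0.705% (0.502 to 0.962). The untreated share was the higher one at both depths. In the untreated capture 230 barcodes carried exactly 2 of the 7 genes, 360 carried 3 or more and 30 carried all 7. In the MC903 capture 100 carried exactly 2, 49 carried 3 or more and 21 carried all 7. Just outside the rule, 1059 untreated and 936 MC903 barcodes carried 1 of the 7 genes.

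The genes that chose the members were not detected equally. Among untreated barcodes Pclaf was found in 389 of 590 members (65.9%), Top2a in 322 (54.6%), Ube2c in 302 (51.2%), Mki67 in 294 (49.8%), Birc5 in 273 (46.3%), Cdk1 in 225 (38.1%) and Ccnb2 in 159 (26.9%). After MC903, Mki67 led with 106 of 149 (71.1%), followed by Top2a with 103 (69.1%), Pclaf with 65 (43.6%), Cdk1 with 59 (39.6%), Birc5 with 57 (38.3%), Ube2c with 50 (33.6%) and Ccnb2 with 37 (24.8%). Mki67 and Top2a were also the most frequent outside the rule, in 5.78% and 3.49% of other untreated and 5.63% and 6.56% of other MC903 barcodes, whereas Ccnb2 was found in 0.255% and 0.2%.

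Lineage was first read from 3 genes. Fscn1, which encodes the actin bundler fascin of mature DCs, had a UMI in 388 of the 590 untreated members (65.8%, 61.8 to 69.6) and in 126 of the 149 MC903 members (84.6%, 77.7 to 90.0). Cd79a, part of the B cell receptor, was carried by 254 untreated (43.1%) and 15 MC903 members (10.1%). Cd3e, part of the T cell receptor complex, was carried by 43 untreated (7.29%) and 28 MC903 members (18.8%). At least 1 of the 3 genes was carried by 486 untreated and 145 MC903 members.

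Compared with the other barcodes of the same capture, untreated members carried Fscn1 less often (87.3% of the others) and Cd79a more often (12.7% of the others), and the intervals did not overlap. MC903 members carried Cd3e more often (4.92% of the others). At 2000 UMIs per barcode the Cd79a share was 37.0% against 10.0% in untreated members and others. The Cd3e share in MC903 was 5.37% (2.35 to 10.3) against 2.84% (2.41 to 3.32), and those intervals overlapped.

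**Figure D1:**
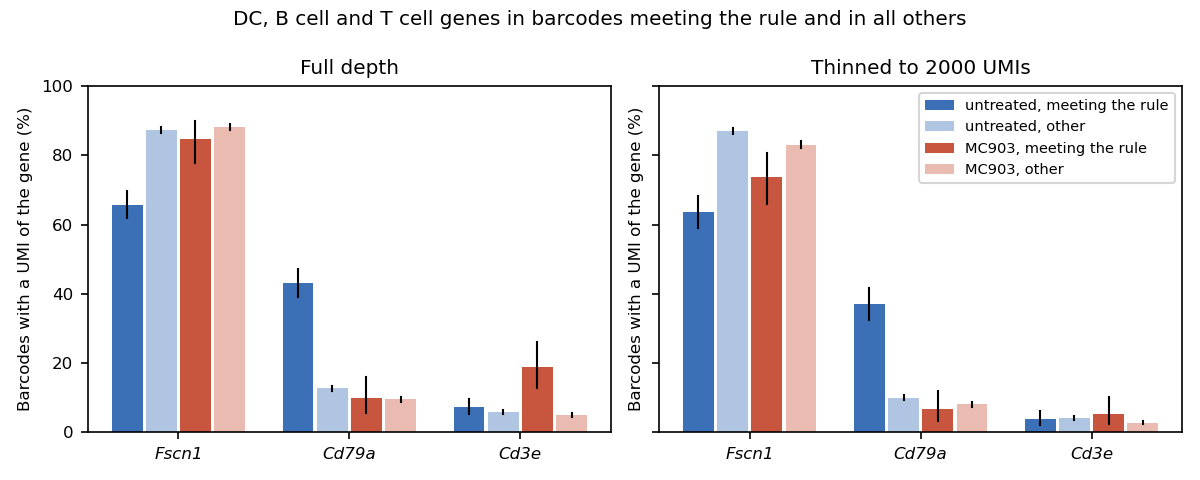
Bars give the share of barcodes (%, vertical axis) with at least 1 UMI of Fscn1, Cd79a or Cd3e in rule-positive barcodes (full colour) and all others (pale), with untreated in blue and MC903 in red, at full depth and thinned to 2000 UMIs. Lines are exact 95% intervals. Cd79a in untreated members (43.1%, 37.0% thinned) stands above the other untreated barcodes (12.7%, 10.0%).

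Many members carried genes of more than 1 lineage. In the untreated capture 155 members held Fscn1 with Cd79a, 21 Fscn1 with Cd3e, 3 Cd79a with Cd3e and 10 all 3 genes, in total 189 (32%) against 13.4% of the other barcodes. In the MC903 capture 23 members (15.4%) held at least 2 of the 3, against 5.10% of the others, and 15 of those 23 held Fscn1 with Cd3e alone. MC903 members were deeper, with a median of 15272 UMIs (23698 in those 23) against 9118 in the other MC903 barcodes. The untreated medians were 2731 and 2614 UMIs. These combinations were counted at full depth only, so the part of depth in the MC903 difference was not tested. Fscn1 UMIs were not limited to DCs: among barcodes outside the rule it was found in 20.7% of untreated barcodes of the T cell-like cluster (median 3824 UMIs) and in 93.3% of those in DC clusters (median 2709 UMIs). In the MC903 capture these shares were 19.8% (4554.5 UMIs) and 98.9% (9762 UMIs). A UMI of Fscn1 alone was thus a weak marker of identity in these captures, and clusters were used for the rest. Cd79a and Cd3e were more specific outside the rule, although the clusters were named with lists that hold them. Cd79a was in 98.8% of MC903 B cell-cluster and 1.45% of DC-cluster barcodes (untreated 74.6% and 7.26%). Cd3e was in 80.2% of MC903 T cell-like and 0.562% of DC-cluster barcodes (untreated 69.2% and 2.72%). Of the members 104 untreated and 4 MC903 barcodes held none of the 3 genes.

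Clusters were built from both captures without the cell cycle genes, so that they follow lineage, and named from marker lists. The cDC1-like, cDC2-like and unnamed clusters were pooled as DC clusters. This class is what was left after clusters with at least 3 markers of another lineage were set apart, and no DC marker was required. Cluster 17 (3 untreated and 178 MC903 barcodes), led by genes of salivary-type secretions, is therefore among them. Untreated members were mostly B cell-like: 367 of 590 (62.2%, 58.2 to 66.1) lay in B cell clusters, 116 (19.7%, 16.5 to 23.1) in DC clusters, 71 (12.0%) in a cluster with both T cell and B cell genes, 5 in the T cell-like cluster and 31 in other clusters. At full depth MC903 members were mostly in DC clusters: 102 of 149 (68.5%, 60.3 to 75.8), with 21 (14.1%) in the T cell-like cluster, 9 in B cell clusters, 8 in the mixed T and B cell cluster and 9 elsewhere. This majority did not hold at equal depth or with more rule genes: at 2000 UMIs 11 of 39 MC903 members lay in DC clusters and 16 in the T cell-like cluster, and with 3 or more genes 18 of 49 lay in each. The gate excluded B220+ cells, a surface marker of B cells, so the B cell barcodes lie outside the cells the sort was set to keep.

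The lineage genes followed these clusters only in part. In DC clusters Fscn1 was carried by 102 of 116 untreated members (87.9%) and 99 of 102 MC903 members (97.1%), and Cd79a and Cd3e by 12 and 10 untreated but only 1 and 2 MC903 members. In untreated B cell clusters 202 of 367 members carried Cd79a (55.0%, against 74.6% of the other B cell barcodes) and 209 carried Fscn1 (56.9%, against 37.5%), with median depths of 2626 and 2494 UMIs. These shares mix 2 clusters: cluster 10, described below, held 358 of the 367 members but 185 of the 283 others. In that cluster members were deeper (median 2617.5 against 1817 UMIs), and their Fscn1 CPM, given below, was not higher. All 9 MC903 members in B cell clusters carried Cd79a. In the MC903 T cell-like cluster 20 of 21 members carried Cd3e and 9 Fscn1 (42.9%, 21.8 to 66.0, against 19.8% of the others). The members there were far deeper, with a median of 24631 against 4554.5 UMIs. At 2000 UMIs per barcode 3 of the 21 carried Fscn1 (14.3%, 3.05 to 36.3, against 10.5% of the others). Cd3e was then in 6 of the 21 (28.6%, 11.3 to 52.2, against 51.9%).

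The lineages differed in how many rule genes their members carried. Of the untreated B cell members 265 of 367 (72.2%) had 3 or more of the 7 genes, and of the MC903 T cell-like members 18 of 21 (85.7%). Of the DC members only 37 of 116 untreated (31.9%) and 18 of 102 MC903 barcodes (17.6%) had 3 or more. Among the 79 untreated and 84 MC903 DC members with exactly 2 genes, the pair Mki67 and Top2a was the most frequent, in 18 and 28 barcodes.

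**Figure D2:**
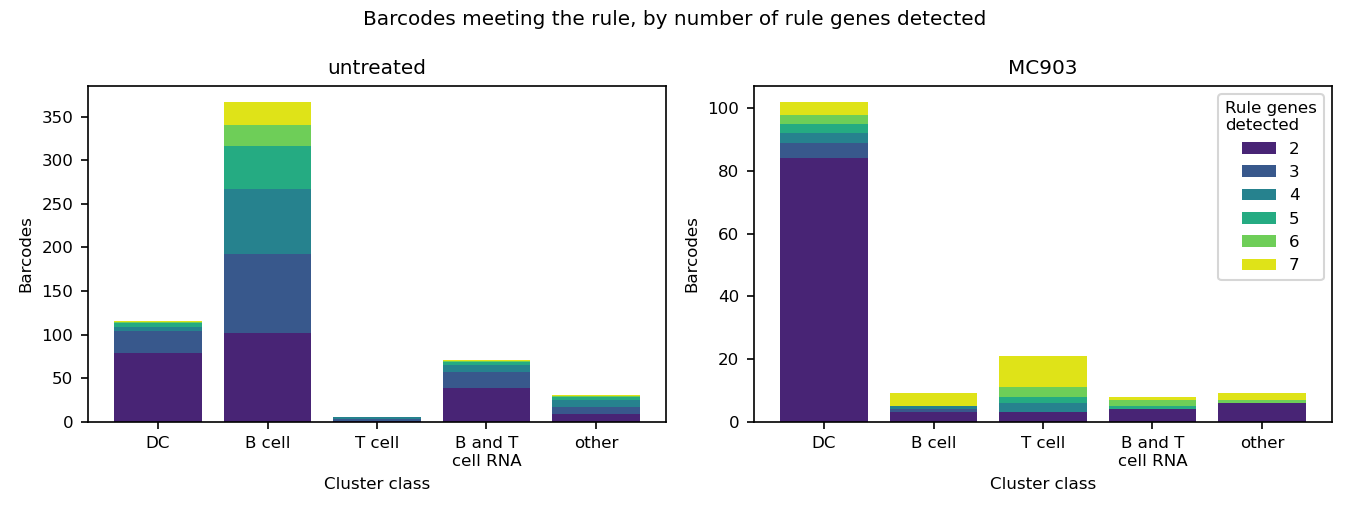
Stacked bars count rule-positive barcodes (vertical axis, from 0, with a different scale per panel) in each class of clusters (horizontal axis), coloured by how many of the 7 rule genes were detected. Of the 102 MC903 members in DC clusters 84 carried exactly 2 genes, while 265 of the 367 untreated members in B cell clusters carried 3 or more.

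Within clusters the rule-positive share was highest in cluster 10, a germinal centre B cell-like cluster whose leading genes include Rgs13 and Mef2b. It held 358 members among 543 untreated barcodes (65.9%, 61.8 to 69.9), and 67.2% at 2000 UMIs. Cell cycle genes were left out of the clustering, but Ube2c, Ccnb1, Ccna2, Pclaf and Cenpf still ranked among the leading genes of that cluster. In the other B cell-like cluster, which is led by genes of mature B cells such as Fcer2a and Cr2, 9 of 107 untreated and 1 of 398 MC903 barcodes were members. In the MC903 capture cluster 10 held only 15 barcodes, of which 8 were members.

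Among untreated DC clusters of at least 20 barcodes the cDC1-like cluster (Xcr1, Clec9a) had the highest share, with 23 of 213 barcodes (10.8%, 6.97 to 15.8), and 5.49% (2.67 to 9.87) at 2000 UMIs. In the cDC2-like cluster (Cd209a, Mgl2) 20 of 751 untreated barcodes (2.66%, 1.63 to 4.08) and 6 of 63 MC903 barcodes (9.52%, 3.58 to 19.6) were members. The largest untreated DC cluster, which is unnamed and led by Ccl21a and Cxcl1, had 42 of 2658 (1.58%, 1.14 to 2.13). The interval of the cDC1-like cluster lay above those of both other untreated clusters at full depth, but at 2000 UMIs it overlapped that of the cDC2-like cluster (1.55%, 0.672 to 3.03).

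The unnamed DC clusters that held most MC903 cells had low shares once depth was equal. Cluster 3, led by Dll4, Tnfsf4 and BFP, had 21 of 908 members at full depth (2.31%) and 4 of 904 (0.442%) at 2000 UMIs. Cluster 13, led by the chemokines Ccl17 and Ccl22, had 14 of 282 (4.96%) and then 1 of 280 (0.357%), and none of its 14 members carried 3 or more rule genes. In cluster 9, with Ifit1 and Isg15 among its leading genes, 15 of 643 (2.33%) met the rule at full depth and 0 of 641 (0 to 0.574) at 2000 UMIs. Over all DC clusters the thinned share was 1.10% (0.831 to 1.43) in the untreated and 0.235% (0.117 to 0.420) in the MC903 capture, while the unthinned shares of 1.95% (1.61 to 2.33) and 2.16% (1.76 to 2.61) had overlapping intervals.

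T cell-like and myeloid barcodes were also among the members. The T cell-like cluster held 21 members of 269 MC903 barcodes (7.81%, 4.90 to 11.7) and 5 of 174 untreated ones (2.87%, 0.939 to 6.58), and the intervals overlapped. At 2000 UMIs these shares were 6.20% and 1.45%. Cluster 15, monocyte and macrophage-like but with the mast cell genes Mcpt4, Tpsb2 and Cpa3 also among its leading genes, held 24 members of 208 untreated barcodes (11.5%, 7.53 to 16.7), and 14% at 2000 UMIs. The neutrophil-like cluster held 5 of 22 MC903 barcodes (22.7%, 7.82 to 45.4) and 2 of 151 untreated ones.

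**Figure D3:**
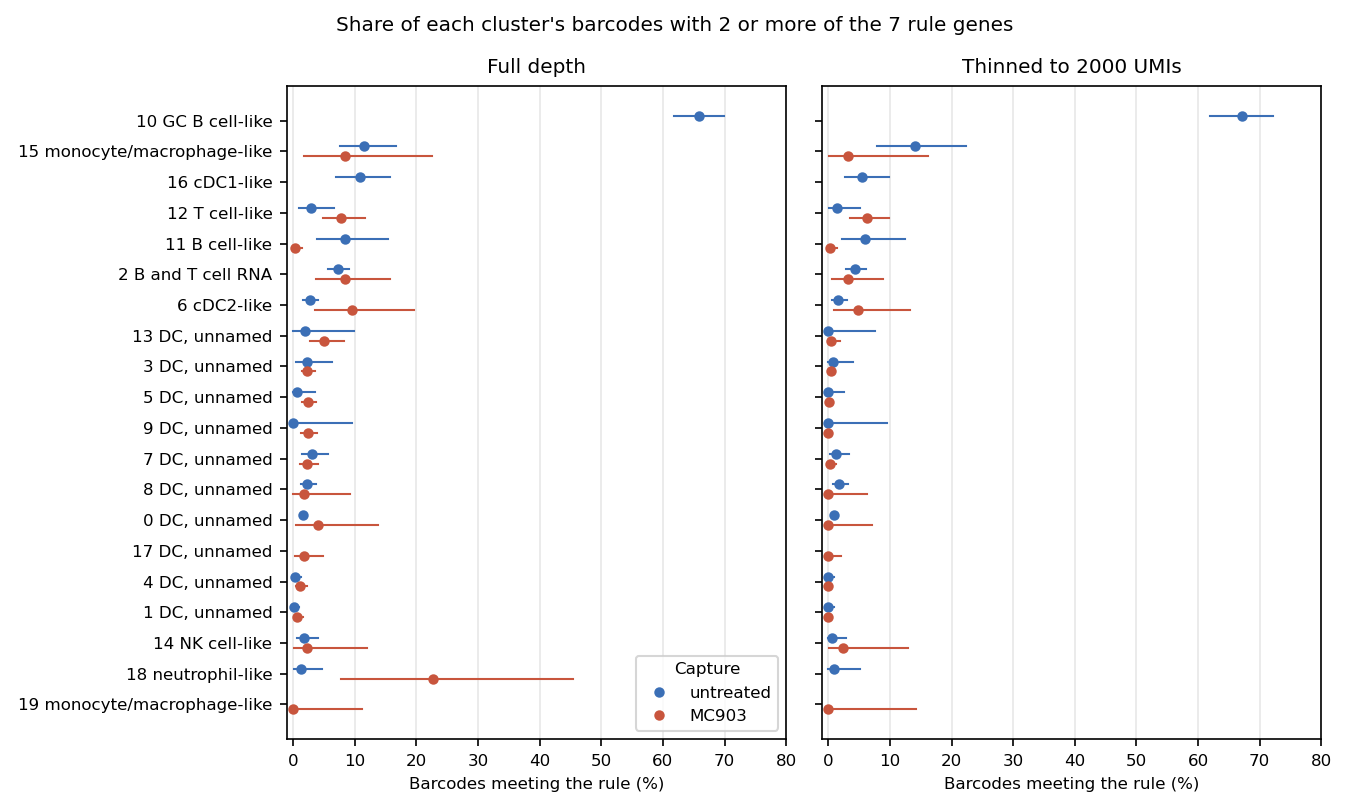
Points give the share of barcodes meeting the rule (%, horizontal axis) in each cluster (vertical axis) for the untreated (blue) and MC903 (red) captures, at full depth and thinned to 2000 UMIs. Lines are exact 95% intervals, clusters with under 20 barcodes of a capture are not drawn, and the germinal centre (GC) B cell-like cluster 10 stands apart at 65.9% and 67.2%.

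The summed level of the S phase list and of the G2 and mitosis list was then compared, as CPM, the UMIs of the list divided by all UMIs of the set and scaled to 1000000. These lists include relatives of the rule genes, so higher levels with more rule genes are partly built in. In untreated DC clusters the S phase list stood at 633 CPM in barcodes outside the rule, 686 in those with 1 rule gene, 1233 (1132 to 1340) in those with exactly 2 and 4105 (3858 to 4364) in those with 3 or more. The G2 and mitosis list stood at 765, 806, 1302 (1199 to 1412) and 4249 (3997 to 4512) CPM. Untreated DC members just inside the rule were thus above the barcodes just outside it.

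In MC903 DC clusters the step came at 3 genes instead. The S phase list was at 627 CPM outside the rule, 646 with 1 gene, 728 (681 to 777) with exactly 2 and 2998 (2818 to 3186) with 3 or more. The G2 and mitosis list was at 744, 768, 830 (780 to 882) and 4393 (4175 to 4620) CPM. The 84 barcodes with exactly 2 genes also had a higher median depth, 13126.5 UMIs against 9762 for the other DC barcodes. At 2000 UMIs per barcode 11 of 4677 MC903 DC barcodes met the rule, against 102 of 4725 at full depth.

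The balance of the lists differed between clusters, also outside the rule. In cluster 10 the members' G2 and mitosis list was at 7365 CPM and the S phase list at 3936, a ratio of 1.87 (1.13 in the other barcodes of the cluster), and 269 of 358 members had more UMIs of the first list. The MC903 T cell-like members had 9903 against 6019 CPM (ratio 1.65, others 1.33), and the untreated monocyte and macrophage-like members 5735 against 3240 (ratio 1.77, others 1.53), with more G2 and mitosis UMIs in 20 of 24. The cDC1-like members went the other way, with 3283 CPM of the G2 and mitosis list against 4675 of the S phase list (ratio 0.702, others 1.23), and 17 of 23 had more S phase UMIs. The cDC2-like members lay between, at 4280 and 4479 CPM (ratio 0.956, others 1.18).

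**Figure D4:**
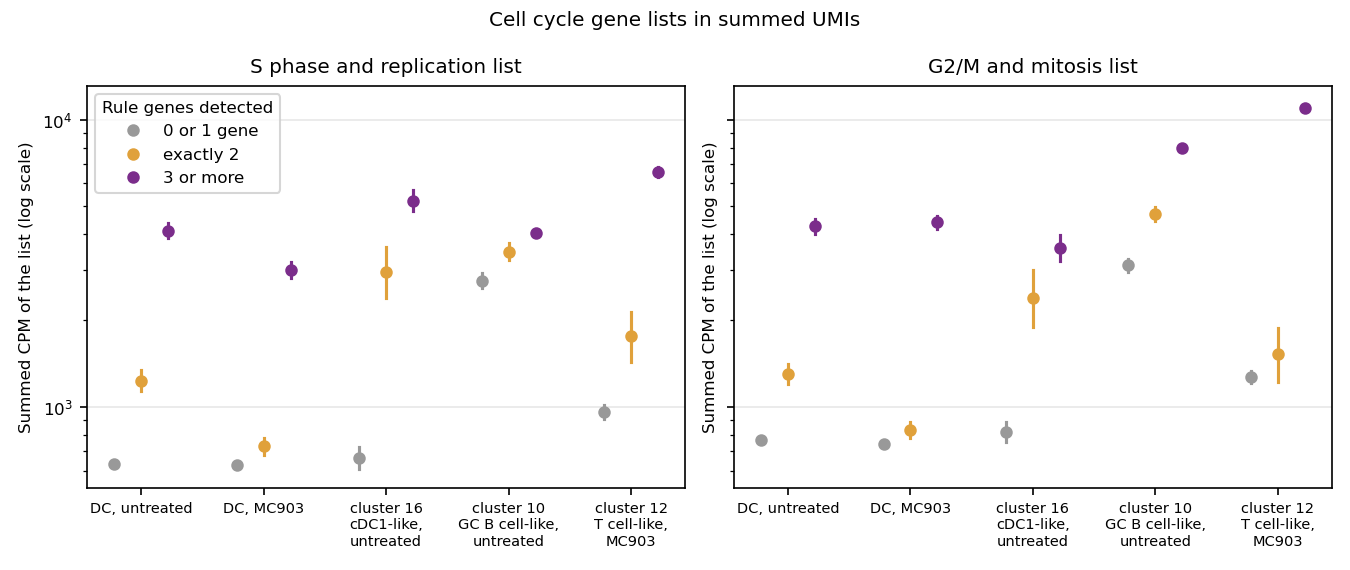
Points give the summed CPM (log axis) of the S phase and the G2 and mitosis gene lists in barcodes with 0 or 1, exactly 2, and 3 or more rule genes, in 5 sets of clusters. Lines are exact Poisson 95% intervals. In MC903 DC clusters barcodes with exactly 2 genes (728 and 830 CPM) lie near the rest (627 and 744), whereas barcodes with 3 or more reach 2998 and 4393.

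The DC members were compared gene by gene with the other DC-cluster barcodes of their capture. A gene counted as apart when it had at least 20 CPM in the higher set and a 1.5-fold ratio. In the untreated capture 926 of 5562 genes were higher (16.6%) and 329 lower (5.92%) in the members, and in the MC903 capture 300 of 5011 were higher (5.99%) and 129 lower (2.57%). TMM scaling, which shifted log2 ratios by 0.15 and 0.07, gave 662 higher and 571 lower in the untreated and 239 and 183 in the MC903 capture.

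Of each list and of all genes, those with at least 50 UMIs were measured. Shares of all measured genes include genes under 20 CPM, which could not count as apart. In the untreated capture 37 of 43 were higher in members (median log2 ratio 1.98), against 9.11% of all measured genes, and in the MC903 capture 18 of 44 (median 1.0), against 2.83%. Of the G2 and mitosis list 22 of 39 were higher in the untreated (median 1.66) and 12 of 45 in the MC903 capture (median 1.46). The median over all measured genes was 0.06 and 0.01. These lists lie close to the rule, and nothing is read from their counts. Split by number of rule genes, MC903 members with exactly 2 had 1 S phase gene higher and 1 lower of 43 (median 0.19), and 1 G2 and mitosis gene higher and 2 lower of 41 (median 0.12), against 2.05% higher and 1.48% lower of all.

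In DC members with 3 or more rule genes the replication and chromatin genes stood well above the rest. Rrm2, a subunit of ribonucleotide reductase, was at 132 CPM against 1.26 in other untreated DC barcodes (33 UMIs in 12 of 37 barcodes, 15 of them in 1 barcode) and at 69.6 against 0.578 in MC903 (24 UMIs in 6 of 18 barcodes). Stmn1, which destabilizes microtubules, was at 696 against 19.5 CPM in the untreated (log2 5.16, 4.90 to 5.42) and 508 against 11.9 in the MC903 capture (5.42, 5.17 to 5.67). It was found in 31 of 37 barcodes (41 of 174 UMIs in 1) and in 14 of 18 (25 of 175 UMIs in 1).

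Pcna, the replication clamp, was at 380 against 61.4 CPM (log2 2.63) and 197 against 46.4 CPM (2.09). Tyms, thymidylate synthase, was at 152 against 14.4 CPM (3.4) and 133 against 24.2 (2.46). Hmgb2, a chromatin protein high in dividing cells, was at 1272 against 191 CPM (2.74) and 1138 against 155 (2.87). The mitotic cyclin gene Ccnb1 rested on few UMIs, 7 in untreated and 13 in MC903 barcodes, against 6 and 20 in all other DC barcodes.

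Genes of the mature migratory state were lower in the same barcodes. In the untreated capture all 10 migratory DC markers were lower in DC members with 3 or more rule genes (median log2 -1.04), against 11.4% lower and 19.5% higher of all measured genes, and in the MC903 capture 6 of 10 were (median -0.63), against 7.64% lower and 13% higher. Ccr7, the receptor that guides DCs to the node, was at 1368 against 2517 CPM in the untreated (log2 -0.88) and 1753 against 2655 in the MC903 capture (-0.60). Fscn1 was at 1008 against 1986 CPM (-0.98) and 1747 against 2448 (-0.49). Of 12 DC maturation genes 10 were lower and 1 higher in the untreated capture (median -0.82), and 3 were lower in the MC903 capture (median -0.29). Among all genes with at least 20 CPM in the higher set, 1142 of 6098 were lower and 2010 higher in the untreated capture. In the MC903 capture 807 of 5634 such genes were lower and 1400 higher.

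The difference was smaller against matched barcodes. When each member was set against 3 other DC barcodes of the same cluster and similar total UMIs, the migratory markers had medians of -0.57 (4 of 10 lower, against 14.2% of all) and -0.36 (0 of 10 lower, against 9.32%). Ccr7 was then at 1368 against 2074 CPM (log2 -0.60) and 1753 against 2207 (-0.33), still below its matched barcodes. The maturation list had medians of -0.49 and -0.14. The S phase and the G2 and mitosis lists kept medians of 2.51 and 2.16 in the untreated and 2.00 and 2.35 in the MC903 capture.

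Several subset and lineage markers lost their difference in the matched comparison. In untreated DC members with 3 or more genes 5 of 6 cDC1 markers were higher (median 2.62), against 19.5% of all. Xcr1 was at 124 against 9.06 CPM, and 11 of the 37 barcodes came from the cDC1-like cluster. Against matched barcodes the cDC1 median was -0.28, and Xcr1 stood at 124 against 155 CPM (log2 -0.32, -0.95 to 0.27). MHC class II genes, which present antigen, went from 6 of 10 higher (median 0.64) to 0 of 9 (median -0.23), against 18.4% of all. H2-Ab1 was at 4641 against 2614 CPM and against 5429 in matched barcodes, with 338 of its 1160 UMIs in 1 barcode. In the MC903 capture 5 of 6 cDC2 markers were higher (median 2.98), against 13% of all, with Mgl2 at 334 against 15 CPM. In matched barcodes Mgl2 was at 99.9 CPM (log2 1.74, 1.34 to 2.14), and 4 of 5 cDC2 markers were higher (median 1.29), against 14% of all. Of these 18 barcodes 3 came from the cDC2-like cluster.

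Markers of other cells moved with the DC members. In untreated ones with 3 or more genes 9 of 12 T cell markers were higher and 1 lower (median 1.93), against 19.5% and 11.4% of all, with Cd3g at 76.0 against 18.3 CPM, and 24 of the 37 had no UMI of Cd79a or Cd3e. In those 24, set against other DC barcodes without such UMIs, 5 of 11 T cell markers were higher (median 1.2), against 16% of all. Their migratory markers had a median of -0.82, against -0.06 over all measured genes. The MC903 barcodes with 3 or more genes had no UMI of Cd79a or Cd3e, which allows up to 8.71 CPM of each. In these MC903 barcodes 3 of 7 monocyte and macrophage markers were higher (median 1.48), against 13% of all, and the list summed to 734 against 127 CPM, and to 183 in matched barcodes. Lyz2, which myeloid DCs also express, was at 644 against 84.4 CPM, while the macrophage genes C1qa and C1qb had no UMI. The part of T cell or myeloid RNA in the results was not tested.

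**Figure D5:**
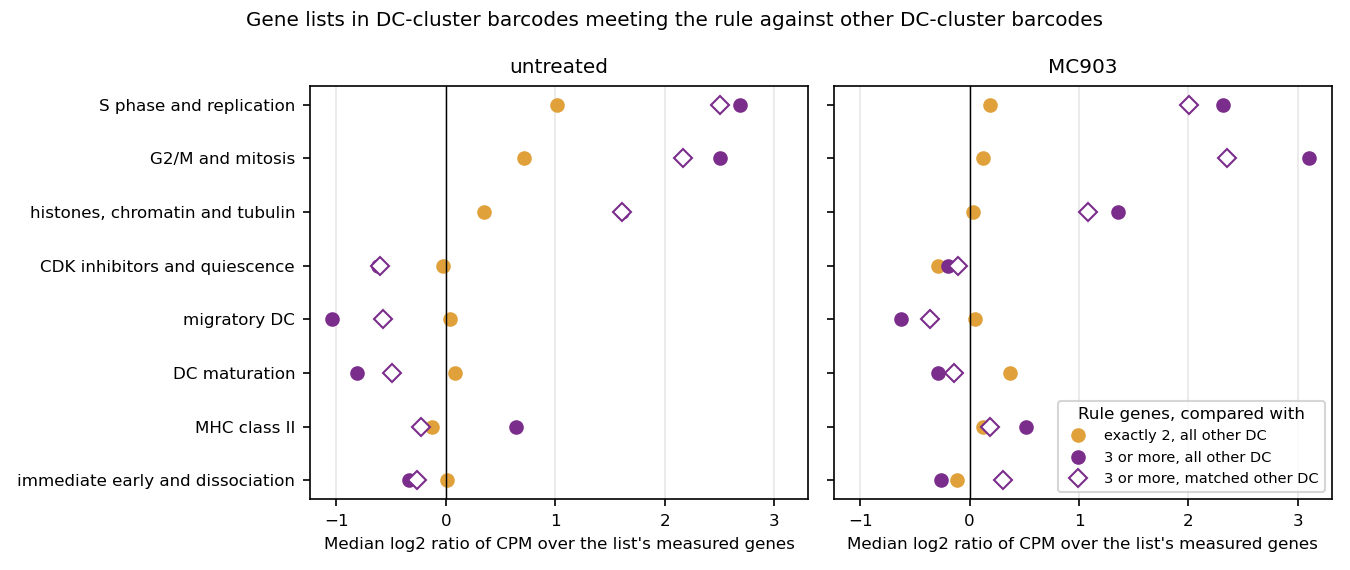
Each point is the median log2 ratio of CPM (horizontal axis) over the measured genes of a list (vertical axis), for DC-cluster members against other DC-cluster barcodes of the same capture. Orange circles are members with exactly 2 rule genes, purple circles those with 3 or more, and open diamonds those with 3 or more against barcodes matched on cluster and total UMIs. With 3 or more genes the migratory DC markers lie at -1.04 and -0.63, and at -0.57 and -0.36 when matched.

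Of 18 inhibitor and quiescence genes 10 were lower in untreated DC members with 3 or more rule genes (median -0.62) and 1 was higher, against 11.4% and 19.5% of all. In MC903 4 were lower and 2 higher (median -0.20), against 7.64% and 13%. Cdkn2b, which encodes the CDK4 and CDK6 inhibitor p15, was at 28.0 against 91.3 CPM (7 UMIs, log2 -1.71, -3.02 to -0.66) and 46.4 against 99.4 (16 UMIs, log2 -1.10, -1.91 to -0.40). Cdkn1a, which encodes p21, was at 316 against 516 CPM (-0.71) and 348 against 477 (-0.45).

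Outside the cell cycle lists, 10 genes each way were named by the size of their ratio in both captures, over all DC members. The highest were Ckb, Naaa, Cfp, Sfxn1, Ms4a4c, Dctpp1, Ly6e, Plbd1, Alox5ap and Wdfy4. Dctpp1, which encodes a nucleotide-cleaning enzyme, was at 67.4 against 13.1 CPM in the untreated (log2 2.36, 1.89 to 2.81) and 29.1 against 10.7 in the MC903 capture (1.45, 0.98 to 1.89), and was found in 25 and 23 members. Naaa, a cDC1 marker that encodes an acid amidase, was at 94.6 against 32.9 CPM and 41.1 against 13.4, but 34 of 66 and 29 of 65 UMIs came from 1 barcode. Plbd1 was at 153 against 57.9 CPM and 53.8 against 13.3, with 30 of 107 and 26 of 85 UMIs in 1 barcode.

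The lowest were Fabp4, Rnf152, Cdh2, Sox4, Exoc7, Rubcn, Tbc1d5, Trim7, St6gal1 and Arc. Fabp4, a fatty acid carrier, was at 10.0 against 29.6 CPM (7 UMIs, log2 -1.56, -2.88 to -0.51) and 6.33 against 53.3 (10 UMIs, -3.07, -4.14 to -2.19). Sox4, a transcription factor gene, was at 94.6 against 188 CPM (-0.99, -1.37 to -0.64) and 109 against 214 (-0.98, -1.20 to -0.76), a similar size in both captures.

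The chemokine gene Ccl17 and the costimulatory gene Cd40 showed how the DC members were mixed. Over all DC members Ccl17 was higher, at 654 against 310 CPM in the untreated (180 of 456 UMIs in 1 barcode) and 1277 against 554 in the MC903 capture. In members with 3 or more rule genes it was lower, at 176 against 310 CPM (log2 -0.82, -1.28 to -0.39) and 63.8 against 554 (-3.12, -3.79 to -2.52). Cd40 was likewise at 517 against 383 CPM in all untreated members and at 184 against 383 in those with 3 or more genes. In MC903 Cd40 was at 657 against 323 CPM in all members and at 313 (log2 -0.04, -0.33 to 0.23) in those with 3 or more.

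The sorted gene and the reporter were sparse in DC members. Tnfsf4 had 1 UMI in untreated members (1.43 against 9.53 CPM) and 30 UMIs in 11 MC903 members, 10 of them in 1 barcode (19 against 13.8 CPM, log2 0.46, -0.12 to 0.99). BFP was at 20.1 against 24.7 CPM in the untreated (14 UMIs) and 36.7 against 42.1 in the MC903 capture (58 UMIs). The intervals of BFP included no difference in both captures. Against barcodes matched on cluster and total UMIs, BFP was lower in MC903 members, at 36.7 against 64.1 CPM (log2 -0.81, -1.24 to -0.39), and at 20.1 against 23.1 in untreated ones (-0.20, -1.19 to 0.69).

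Hashtags gave no clear picture of the sort in the untreated capture. There 470 of 590 members (79.7%) had no hashtag call, against 58.3% of the others, and 86 were called BFP+ and 32 BFP− (72.9% BFP+, against 72.7% of the other singlets). By the dominant hashtag instead, 18 of 453 members (3.97%) were BFP+, against 9.81% of the others, so the 2 ways of calling gave opposite majorities. In the MC903 capture 40 members were called BFP+ and 77 BFP− (34.2% BFP+, 25.7 to 43.5, against 41.6% of the others, 40.1 to 43.1), and the dominant hashtag gave 27.5%. Hashtag doublets made up 10 of 149 MC903 members (6.71%) and 2.59% of the others. Among MC903 DC members 28 were BFP+ and 54 BFP− (34.1%, 24.0 to 45.4, against 39.4% of other DC singlets).

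DC members were also compared between captures. Of 5597 genes 625 were higher (11.2%) and 1157 lower (20.7%) in MC903 than in untreated DC members, and TMM scaling, which moved the median from -0.06 to 0.13, turned this into 988 higher and 750 lower. The other DC barcodes had 235 higher (4.71%) and 252 lower (5.05%) of 4989 genes. These counts are not alike, because the members' sums were far smaller and counting error adds calls. Members had 1580261 (MC903) and 697665 (untreated) UMIs, the others 48445169 and 23073377. With an interval clear of 0 also required, 458 genes were higher and 781 lower in MC903 members. Different clusters held most of the members. In the untreated capture clusters 0, 16, 6 and 8 held 42, 23, 20 and 14 of 116, and in the MC903 capture clusters 3, 5, 9, 13 and 7 held 21, 18, 15, 14 and 10 of 102.

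S phase genes were mostly lower and maturation genes mostly higher in MC903 DC members. Of the S phase list 22 of 27 measured genes were lower (median -0.85), against 13.7% of all, and the same list had a median of -0.13 in the other DC barcodes. Pcna was at 81.0 against 208 CPM and Rrm2 at 15.8 against 53.0. Of the G2 and mitosis list 8 of 16 were lower and 1 higher (median -0.56), but among members with 3 or more rule genes its sum was 4393 CPM (4175 to 4620) in MC903 and 4249 (3997 to 4512) in untreated DC clusters. Of 12 DC maturation genes 8 were higher (median 1.04), against 11.5% of all, with a median of 0.66 in the other DC barcodes. Ccl22, a chemokine for CCR4, was at 4554 against 2058 CPM in members and 2877 against 1547 in the others. Of the DC members 84 of 102 in MC903 and 79 of 116 in the untreated capture carried exactly 2 rule genes, and the part of this in both lists was not tested.

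The genes furthest apart between captures were named by rank. Cish, a STAT5 target that dampens cytokine signals, was at 55.7 against 4.30 CPM (88 UMIs in 38 barcodes against 3 UMIs in 1, log2 3.69, 2.10 to 6.0), and at 34.9 against 3.86 in the other DC barcodes. Dll4, a Notch ligand, was at 73.4 against 7.17 CPM (116 against 5 UMIs) and at 32.1 against 10.1 in the others. Fabp5, a fatty acid carrier, was at 6887 against 1663 CPM (log2 2.05, 1.96 to 2.14) and had a log2 ratio of 1.25 in the others. Plek2 and Pla1a were also higher, at 43.0 against 2.87 and 68.3 against 7.17 CPM. Ear2, Pltp and Mrc1 rested on 1 barcode for 39 of 83, 28 of 36 and 29 of 34 UMIs.

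In the other direction Xcl1, a chemokine gene of NK and T cells among the leading genes of the cDC1-like cluster here, had 89 UMIs in 17 untreated members (128 CPM) and none in MC903 members. With 3 counts in place of 0 this was 67.2-fold lower, and the interval ended at log2 -5.74. Ccl4, with 56 UMIs in 19 untreated members and none in MC903, was 42.3-fold lower by the same replacement (interval ending at log2 -5.06). Ms4a4b, a T cell gene, was at 1.90 against 68.8 CPM (3 against 48 UMIs, log2 -5.18, -7.51 to -3.55). Mucl1, Ly6d and Sh2d2a, with 3 counts in place of 0, were 31.0-fold, 14.3-fold and 13.6-fold lower. Their intervals ended at log2 -4.59, -3.40 and -3.32. All 48 Wfdc12 UMIs and all 1251 Bpifa2 UMIs of untreated members came from 1 barcode each. Both genes were among the leading genes of cluster 17, with those of salivary-type secretions.

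Inside cluster 10 the members were compared with its 185 other untreated barcodes. Members were deeper (median 2617.5 against 1817 UMIs), and the cell cycle lists lie close to the rule. Of the G2 and mitosis list 40 of 44 genes were higher in members (median 1.36), against 14.4% of all measured genes, and of the S phase list 15 of 39 (median 0.48). Cenpf, a kinetochore gene, was at 166 against 29.8 CPM (log2 2.48, 1.64 to 3.45), while Pcna was at 205 against 179 (0.19, -0.19 to 0.59). Summed, the S phase list stood at 3936 CPM (3830 to 4045) in members and 2751 (2591 to 2918) in the other barcodes of the cluster. None of its genes was lower in members. Those other barcodes had the G2 and mitosis list at 3106 CPM (2937 to 3284). In untreated DC barcodes outside the rule the S phase list was at 633 CPM and the G2 and mitosis list at 765.

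B cell identity genes in cluster 10 moved unevenly. Mef2b, a germinal centre transcription factor gene, was at 153 against 77.1 CPM (log2 0.99, 0.44 to 1.59), and Rgs13 at 153 against 102 (0.58, 0.09 to 1.10). Cd79a was lower in members, at 466 against 736 CPM (-0.66, -0.86 to -0.45). Jchain, a plasma cell gene, was at 397 against 1592 CPM (-2.0, -2.17 to -1.84). Fscn1 was at 511 against 582 CPM (-0.19, -0.40 to 0.03), and the interval included no difference.

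Named by rank, Il22, Tex10, Kif20a, Wdhd1, Otud6b and Gen1 were higher in cluster 10 members, each with 1 UMI in the other barcodes. Il22, a cytokine gene of innate and T lymphocytes, had 51 UMIs in 14 of 358 members (log2 3.95, 1.41 to 9.29). Slpi, Ccl4, Ccl3, Ly6k, Isg20 and Fkbp11 were lower. Slpi was at 49.9 against 1696 CPM (log2 -5.09, -5.48 to -4.72), but 341 of the 682 UMIs outside the rule came from 1 barcode. Ccl4 had no UMI in members against 25 in 5 of the others, at least 27.4-fold lower.

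The 21 MC903 members of the T cell-like cluster were far deeper than its 248 other barcodes, with a median of 24631 against 4554.5 UMIs. All 33 measured S phase genes and 27 of 29 G2 and mitosis genes were higher in the members, against 35.3% of all. Stmn1 was at 1048 against 31.0 CPM and Pcna at 377 against 99.2. T cell markers were lower in 8 of 12 cases (median -0.69), against 14.1% of all. Cd3e was at 217 against 350 CPM (log2 -0.69, -1.01 to -0.38), Cd8b1 at 177 against 458 (-1.37, -1.72 to -1.05) and Il7r, the IL-7 receptor of resting T cells, at 94.3 against 294 (-1.64, -2.11 to -1.20).

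Single genes taken from the marker lists differed less evenly in that cluster. Gata3, the type 2 helper transcription factor gene, was at 149 against 50.8 CPM (log2 1.55, 1.05 to 2.05), Il2ra at 70.2 against 34.1 (1.04, 0.35 to 1.72) while Tnfrsf4, which encodes the receptor for OX40L, was at 428 against 290 (0.56, 0.31 to 0.81), short of the 1.5-fold rule. Foxp3, of regulatory T cells, was at 44.2 against 32.5 (0.44, -0.38 to 1.22). DC genes were higher too: 8 of 10 migratory DC markers (median 1.70), against 35.3% of all measured genes, with Fscn1 at 337 against 108 CPM and H2-Ab1 at 524 against 139 (148 of 261 UMIs in 1 barcode). The part of DC RNA in these barcodes was not tested.

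In the 23 untreated members of the cDC1-like cluster 2 of 6 cDC1 markers were lower and none higher than in its 190 other barcodes (median -0.32), with Xcr1 at 246 against 260 CPM (log2 -0.08, -0.66 to 0.45). Mcm5, a replicative helicase gene, had 16 UMIs against 2 (119 against 2.71 CPM, log2 5.46, 3.37 to 8.62), and Pcna was at 461 against 81.4 CPM (2.5). Migratory DC markers were lower in 9 of 10 cases (median -1.13), against 25.9% of all measured genes, with Ccr7 at 640 against 1407 CPM (-1.14, -1.47 to -0.82). Immediate early genes, which respond to stimulation and to tissue handling, were lower in 9 of 13 cases (median -1.42), with Jun at 52.1 against 275 CPM (7 UMIs). In the 20 cDC2-like members 2 of 10 migratory markers were lower (median -0.13), against 20.8% of all, and Fscn1 was at 1096 against 963 CPM (0.19, -0.13 to 0.49). Immediate early genes were lower in 8 of 14 cases there (median -0.70), and 5 of 6 cDC2 markers were lower (median -1.24, summed 875 against 1829 CPM). The difference between these clusters was not tested.

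In the 24 monocyte and macrophage-like members the 7 measured markers of that lineage had a median of -0.19, against -0.08 over all measured genes. C1qa, a complement gene of macrophages, was at 2397 against 2427 CPM (log2 -0.02, -0.23 to 0.19) and Lyz2 at 9456 against 7721. Their Stmn1 was at 1302 against 62.2 CPM and Pcna at 438 against 86.6. The 71 untreated members of the mixed T and B cell cluster had Cd79a at 363 against 245 CPM (0.57, 0.20 to 0.91), Cd3e at 62.2 against 65.8 (-0.08, -1.02 to 0.73) and Fscn1 at 1200 against 1452 (-0.28, -0.47 to -0.09). Genes of all 3 lineages were thus present in these members, as in the rest of that cluster.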

How the data were processed

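The authors deposited UMI counts per gene and hashtag for each cell barcode, made with Cell Ranger (software version 3.1.0 per the file headers) with the build GRCm38 named in the submitters' processing notes. BFP is 1 of 22631 gene rows. Here barcodes were filtered (8422 of 9520 and 5636 of 6316 kept), hashtags were called with HTODemux of Seurat 5.3.0 (quantile 0.99), and both captures were clustered with scanpy 1.11.5 and leidenalg 0.10.2 (1884 variable genes, cell cycle and reporter genes left out, 30 principal components, resolution 0.8). Clusters were named from at least 3 markers at 2 times their level elsewhere with 1 among the 10 leading genes, and the cluster with both T and B cell markers was set apart after the clusters were seen. Scrublet marked 0 barcodes and did not work as a doublet caller, so doublets were kept, and hashtag doublets were left out as an alternative only. UMIs were summed per set and scaled to CPM, with 3 counts in place of 0 where a fold or limit is given for a gene without UMIs. Members and lists were chosen with earlier results of these data known. Of 356 listed symbols 355 were found.

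Named genes were the rule genes, the reporter genes, up to 4 members of each list by the smaller ratio of both captures, 10 each way in DC clusters by that measure, 8 each way between captures by the interval's bound and 6 each way within cluster 10. Genes named by size outside the lists had at least 20 CPM in the higher set and 20 UMIs in each capture, without genes of mitochondria, ribosomes, haemoglobins, antibodies or T cell receptors, sex-linked genes or models with no name. Others given in the text were taken from the lists to show a group. Tested on simulated data, the 1.5-fold rule recovered 92 of 95 genes set 2-fold apart in the untreated DC comparison of 5076 genes and marked 5.54% of unchanged ones. In the MC903 comparison it recovered 99 of 99 and marked 0.947%. The simulated sums were Poisson counts without differences between barcodes. These rates therefore do not cover genes whose UMIs came largely from 1 barcode.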

Additional observations from a re-analysis of the deposited data

How the results depend on the processing

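Of 133 recalculations under other settings, 82 were labelled as the same, 46 as moved and 5 as reversed. Medians and gene counts have no interval, so for them the first label does not mean within error. The migratory median in untreated DC members with 3 or more rule genes kept it while going from -1.04 to -0.57 when matched. The G2 and mitosis median over all MC903 DC members kept it while going from 1.46 to 0.92. No paired analysis was possible because each population is 1 pool. Leaving out replicates and tests were likewise not possible.

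The untreated share of 7.01% became 3.48% at 1000 UMIs per barcode, 5.04% at 2000, 4.27% with 3 genes required, 2.56% with 4, 7.67% with at most 5% mitochondrial UMIs and 7.72% with at least 1000 genes. The MC903 share of 2.64% became 0.427% at 1000 UMIs, 0.705% at 2000, 1.48% at 4000, 0.869% with 3 genes and 0.763% with 4.

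With 2 UMIs of the gene required, the untreated shares became 46.4% for Fscn1, 24.2% for Cd79a and 1.53% for Cd3e. At 2000 UMIs per barcode they became 37.0% for Cd79a and 3.85% for Cd3e, and in MC903 73.8% for Fscn1 and 5.37% for Cd3e. With 3 rule genes Cd79a was at 48.6% in the untreated capture, and in MC903 Fscn1 was at 67.3%, Cd79a at 16.3% and Cd3e at 46.9%. By dominant hashtag the untreated BFP+ share was 3.97%.

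The untreated share of DC clusters was 16.1% at resolution 1.2, 16.3% with cell cycle genes kept in the clustering and 10.3% with 3 rule genes. That of B cell clusters was 66.4% at resolution 0.4, 73.9% with cell cycle genes kept and 73.6% with 3 rule genes. That of T cell clusters was 5.76% at resolution 0.4 and 4.75% with cell cycle genes kept. In MC903 DC clusters held 36.7% with 3 rule genes, T cell clusters 36.7%, and B cell clusters 12.2%, or 12.1% with cell cycle genes kept.

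Genes apart in DC clusters numbered 1255 untreated, 198 with 100 CPM required and 3152 with 3 rule genes. In MC903 they numbered 429, 57 and 2207, and between captures 1782, 361 and 3033. With 3 rule genes the medians of the S phase and the G2 and mitosis lists were 2.69 and 2.51 untreated, 2.32 and 3.11 in MC903.

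Chosen after seeing the data, the comparison matched on cluster and UMIs reversed 5 medians in DC members with 3 or more rule genes: MHC class II (-0.23), cDC1 (-0.28) and T cell markers (-0.15) untreated, and cDC1 (-0.15) and T cell markers (-0.22) in MC903, where the T cell median was 0.08 before. Matching compares barcodes of the same cluster and depth by construction, and only 2 T cell markers were measured in it. Barcodes with no Cd79a or Cd3e UMI gave a T cell median of 1.2. Depth limits the low genes: in untreated DC members with 3 or more rule genes 3 UMIs are worth 12.0 CPM.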
